A study of Mus musculus with 3 samples.

Results

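Glycosaminoglycans are long sulfated sugar chains that are built in the Golgi on a xylose attached to a core protein, whereas hyaluronan is spun out at the plasma membrane without a core and without sulfate. Chondroitin and dermatan sulfate chains and heparan sulfate chains share the same linker, and they part when the next sugar is added by separate enzyme families. The pattern of sulfate groups decides which growth factors, proteases and matrix proteins a chain can hold, and syndecans and glypicans carry such chains at the cell surface. In tendon, ligament and annulus fibrosus, hyaluronan and the chondroitin sulfate proteoglycan versican lie between collagen fibres. The genes described here are the enzymes that start, polymerize and sulfate these chains, the enzymes that trim sulfate from them, the hyaluronan synthases and the hyaluronan receptor Cd44, the glypicans, the syndecans, and the chondroitin sulfate core proteins Vcan and Cspg4. They were taken by gene symbol alone from all probe sets annotated with a single gene. This gave 60 genes read by 117 probe sets, of 18193 genes and 34945 probe sets in all.

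Cultures of C3H10T1/2, a mouse mesenchymal cell line that can turn into several connective tissue cell types, were compared: cells overexpressing Venus-Mkx, that is the fluorescent protein Venus and the homeobox protein Mohawk, from a retrovirus, cells overexpressing Venus alone in the same way, and cells with neither. All were grown in α-MEM with fetal bovine serum. The coding sequences were carried by the pMIGR vector, virus was made in PLAT-E packaging cells, and infected cells were kept in puromycin, a treatment not stated for the cells without virus. Clones are mentioned for stained cells, and whether the RNA on the arrays came from a clone is not said. Total RNA of each condition was read on 1 Affymetrix array, so no difference has a replicate check and no p-value can be given. In RNA of whole cultures, a smaller number of expressing cells and less RNA per cell cannot be told apart.

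The probe set for Mkx itself had a log2 value of 2.71 on the array labelled Venus-Mkx, against 7.43 in Venus and 6.88 in C3H10T1/2. This goes against the label. Whether the probe set lies inside the sequence carried by the vector is not known from the sources, so it may read only the host cell's own gene and check nothing. The wording "the array labelled Venus-Mkx" is therefore kept, and every direction below rests on that label. Of 9 fibroblast and mesenchymal marker genes, 8 reached the level floor on all 3 arrays, namely Vim, Thy1, Pdgfra, Pdgfrb, Eng, S100a4, Col1a1 and Col1a2. Nt5e lay below it on every array. Thy1 read 8.68 on the array labelled Venus-Mkx, against 7.26 in Venus and 7.27 in C3H10T1/2. Pdgfra read 9.14 there, against 9.84 in Venus and 10.15 in C3H10T1/2. Col1a1 of this list read 13.22 on the array labelled Venus-Mkx, against 11.88 in Venus and 11.52 in C3H10T1/2. Ptprc, Adgre1, Cd68 and Itgam of macrophages, Pecam1, Cdh5, Tie1 and Kdr of endothelium, and Cdh1, Krt8 and Krt18 of epithelium lay below the floor on every array. Krt5 of the epithelial list reached it on every array, with an equal value of 4.53, as did Epcam, at 7.60, against 7.03 in Venus and 6.74 in C3H10T1/2. Tek of the endothelial list read 5.95, against 4.02 in Venus, below the floor, and 4.53 in C3H10T1/2. Lyz2 and Csf1r, also on the macrophage list, read 7.30 and 6.62 on the array labelled Venus-Mkx, against 5.14 and 5.39 in Venus and 4.39 and 4.45 in C3H10T1/2. Summed on the linear scale, the 6 macrophage genes came to 283 on the array labelled Venus-Mkx, 105 in Venus and 71 in C3H10T1/2, the 5 endothelial genes to 93, 46 and 54, the 5 epithelial genes to 247, 191 and 163, and the 9 fibroblast genes to 46279, 44065 and 41466 on the same arrays. The part of other cells in the values below was not tested. All values are log2 probe set values, so a difference of 1 is 2-fold. The floor is 4.34, the median of all values, and measured genes are those with at least 1 of 3 values at or above it. Lower values are not distinguished from background. Probe sets differ in how strongly they bind, so levels were compared between arrays and not between genes. For each gene the probe set with the highest mean was used.

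Of the 60 genes, 42 were measured, with Has1, at 4.45, just inside the floor and Chst10, at 4.11, just outside. On the array labelled Venus-Mkx, 5 of the 42 stood 2-fold or more above both controls and 6 stood 2-fold or more below both. These are 11.9% and 14.3% of the measured members, beside 6.82% and 5.34% of all 11169 measured genes. With values below the floor set to the floor, 4 were still higher and 6 lower, which is 9.52% and 14.3%, beside 6.22% and 4.97% of all genes. The higher genes were Chst8, Hs3st1, Sdc3, Sulf1 and Chst1, and the lower genes were Chst7, Cspg4, Hs6st2, Ext1, Chst15 and Chst11. Chst8 and Hs3st1 were measured only through the array on which they are high. Without a floor, 5 of the 60 members were higher and 6 lower, beside 4.36% and 3.29% of all genes. The members had no common direction. Their median difference from Venus was −0.014, and that of all measured genes was 0.00. They were spread widely around it, with an SD of 1.33 against 0.94 for all measured genes, whereas the SD of the differences between Venus and C3H10T1/2 was 0.38 for the members and 0.34 for all.

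**Figure D1:**
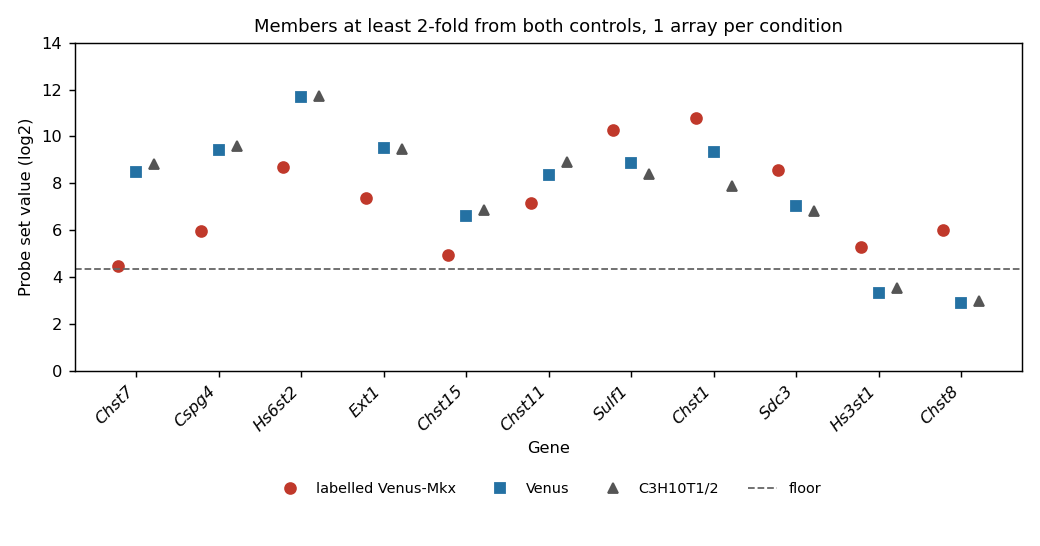
Log2 probe set value of the 11 members at least 2-fold from both controls, with 1 point per array and the floor of 4.34 as a dashed line. Circles are the array labelled Venus-Mkx, squares Venus and triangles C3H10T1/2. The lower genes run from Chst7 to Chst11, Hs3st1 and Chst8 pass the floor only on the array labelled Venus-Mkx, and Chst1 is the only gene of these whose controls lie more than 2-fold apart.

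The 250 bases before the transcription start are printed for the 2 lower and the 2 higher genes with the largest differences that hold with the floor, ordered by the difference from the nearer control, so that the sequence next to these starts can be read beside the values. They are from RefSeq, build GRCm38.p6, and run 5′ to 3′ on the strand of the gene. Capitals mark the GC box, GGGCGG read on both strands. The windows are chrX:20059320-20059569 on the plus strand for Chst7, chr9:56864854-56865103 on the plus strand for Cspg4, chr7:34812712-34812961 on the minus strand for Chst8 and chr4:130792287-130792536 on the plus strand for Sdc3.
Chst7: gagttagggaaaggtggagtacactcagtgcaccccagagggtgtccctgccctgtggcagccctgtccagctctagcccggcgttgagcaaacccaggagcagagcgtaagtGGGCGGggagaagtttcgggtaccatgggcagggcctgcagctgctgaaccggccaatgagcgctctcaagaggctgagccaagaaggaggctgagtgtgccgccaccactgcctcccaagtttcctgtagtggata
Cspg4: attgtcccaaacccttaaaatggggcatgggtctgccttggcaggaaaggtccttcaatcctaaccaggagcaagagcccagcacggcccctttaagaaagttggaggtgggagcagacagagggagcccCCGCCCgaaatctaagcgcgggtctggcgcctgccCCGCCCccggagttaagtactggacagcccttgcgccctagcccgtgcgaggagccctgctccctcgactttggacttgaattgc
Chst8: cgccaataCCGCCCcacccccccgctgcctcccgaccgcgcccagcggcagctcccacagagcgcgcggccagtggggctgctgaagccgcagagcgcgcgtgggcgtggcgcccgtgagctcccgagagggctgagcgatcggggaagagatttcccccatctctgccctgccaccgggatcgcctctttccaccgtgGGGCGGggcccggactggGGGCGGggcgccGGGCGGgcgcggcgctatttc
Sdc3: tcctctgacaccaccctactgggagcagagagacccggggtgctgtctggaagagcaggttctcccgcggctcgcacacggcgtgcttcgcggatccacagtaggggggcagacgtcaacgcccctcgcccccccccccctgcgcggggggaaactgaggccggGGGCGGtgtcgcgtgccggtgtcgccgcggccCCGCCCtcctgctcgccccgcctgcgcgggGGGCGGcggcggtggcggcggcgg

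The promoters of the lower pair, Chst7 and Cspg4, held 8 and 12 CG dinucleotides and 1 and 2 GC boxes. Those of the higher pair, Chst8 and Sdc3, held 32 CG dinucleotides each, and 4 and 3 GC boxes. The median of all 32851 promoters was 6 CG dinucleotides. The other genes did not divide this way, since the promoter of Chst1, also higher, held 1 and that of Chst11, also lower, held 26. A promoter was found for 8 of the 10 genes whose 2-fold difference holds with the floor, with 10 starts in all, and Ext1 and Sulf1 had none in the table used. Of these 10 starts, 7 held GGGCGG, against 32.7% of all promoters, and 1 start of Hs6st2 held the TATA box TATAAA, against 12.4%. None held ACANNTGT, the palindrome that Iroquois proteins of the fly bind, whose homeodomains are related to that of Mohawk, against 6.31% of all. The 3 motifs were searched on both strands, and of these TATAAA and ACANNTGT can share letters with each other but not with GGGCGG. By gene, 6 of the 8 held GGGCGG, since Chst15 held it at both of its starts. The shares and the median are over all promoters, and none was computed for the measured genes alone. These matches describe letters in a window only, and 4 promoters cannot show a difference between higher and lower genes.

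Of the enzymes that build and sulfate chondroitin and dermatan sulfate, 13 genes were measured. On the array labelled Venus-Mkx, 3 sulfotransferase genes among them were at least 2-fold lower than both controls and none was at least 2-fold higher. These counts stand beside 5.34% and 6.82% of all measured genes. By any amount, 9 of the 13 were below both controls and 3 above both, beside 40.0% and 37.7% of all measured genes. Some of these differences were small, such as −0.03 from Venus for Chst12 and −0.10 for Chst14. The median difference of the 13 genes from Venus was −0.23. Chst7, which encodes a sulfotransferase that acts on carbon 6 of N-acetylgalactosamine, had the largest difference of all members. It read 4.45 on the array labelled Venus-Mkx, against 8.47 in Venus and 8.81 in C3H10T1/2. This is 16.2-fold and 20.5-fold lower, and the value on the array labelled Venus-Mkx is just above the floor. Chst15, whose enzyme adds a further sulfate to chondroitin already sulfated on carbon 4, read 4.93 on the array labelled Venus-Mkx, against 6.58 in Venus and 6.85 in C3H10T1/2. The differences were −1.65 and −1.92. Its other probe set was below the floor on all arrays and gives no second reading. Chst11, the main carbon 4 sulfotransferase of cartilage chondroitin in the mouse, read 7.17 on the array labelled Venus-Mkx, against 8.34 in Venus and 8.91 in C3H10T1/2. Its differences were −1.17 and −1.73. Its other probe set read 3.94 on the array labelled Venus-Mkx and 4.27 in Venus. Both values are below the floor, so its difference of −0.33 gives no second reading against Venus. Over the mean of both probe sets, which takes in these values, the difference from Venus was −0.75, less than 2-fold.

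The other sulfation genes of the branch stayed near the controls. Chst12, another carbon 4 sulfotransferase, read 6.20, against 6.23 in Venus and 6.34 in C3H10T1/2. Chst14, the sulfotransferase of dermatan, read 7.77, against 7.87 and 7.96. The epimerases that turn chondroitin into dermatan differed from Venus by −0.49 for Dse and by 0.23 for Dsel, and Ust, which sulfates the uronic acid, by 0.10. Chst3, the other enzyme for carbon 6 of plain chondroitin, and Chst13, a further one for carbon 4, were below the floor on all arrays.

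Among the polymerizing enzymes, Csgalnact1 and Chsy1 were lower than Venus by about 2-fold and the others were not. Csgalnact1, which adds the sugar that commits a linker to chondroitin, read 7.56 on the array labelled Venus-Mkx, against 8.85 in Venus and 8.32 in C3H10T1/2. The difference of −1.29 from Venus is over 2-fold and that of −0.76 from C3H10T1/2 is not, and its second probe set gave −1.40 and −1.06. Chsy1, the chondroitin synthase, read 9.33, against 10.32 in Venus and 10.26 in C3H10T1/2, differences of −0.99 and −0.94. Its partner genes did not share this. Chpf differed by −0.23 from Venus and Chpf2 by 0.61, and Csgalnact2, which does the same step as Csgalnact1, by −0.10. Chsy3 was below the floor on all arrays. Xylt2, one of the enzymes that place the xylose on the core protein, was close to the floor, at 4.58, against 4.66 in Venus and 4.65 in C3H10T1/2. Xylt1 was not analysed here.

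**Figure D2:**
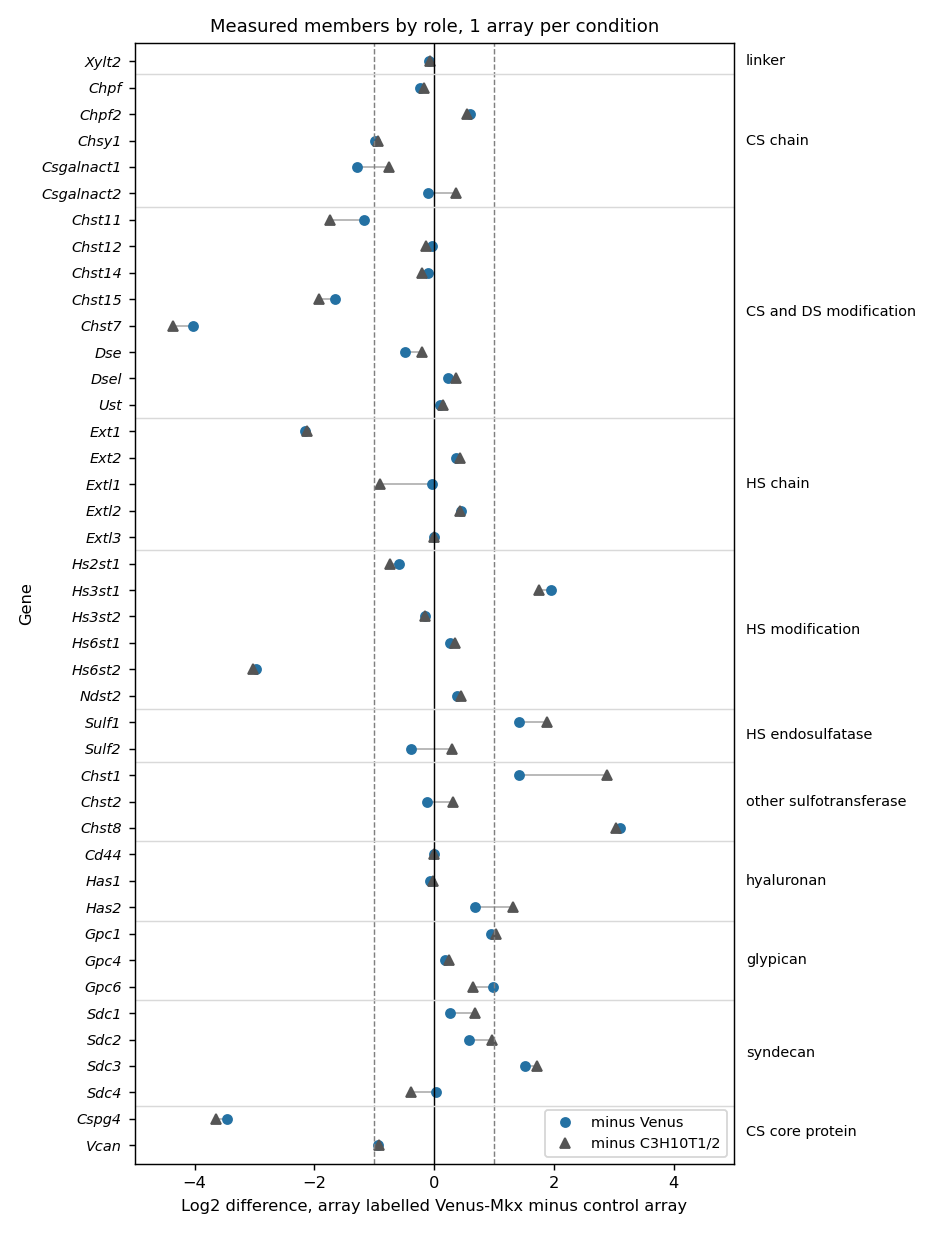
Log2 difference of the array labelled Venus-Mkx from Venus (circles) and from C3H10T1/2 (triangles) for the 42 measured members, in order of role from the linker at the top to the chondroitin sulfate (CS) core proteins at the bottom, where DS is dermatan sulfate and HS heparan sulfate. Dashed lines mark 2-fold. Chst7, Ext1, Hs6st2 and Cspg4 lie beyond −2, Chst8 beyond 3, and the glypicans and syndecans lie at or to the right of 0 against Venus.

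In the heparan sulfate branch, single genes stood far out while their partners stayed in place. Of 11 measured genes of the branch, 2 were at least 2-fold lower, 1 was at least 2-fold higher and 8 were neither, beside 5.34% lower and 6.82% higher of all measured genes. The higher one, Hs3st1, falls short of 2-fold with the floor, and the median difference from Venus was 0.00. Ext1 and Ext2 together form the enzyme that polymerizes the chain. Ext1 read 7.35 on the array labelled Venus-Mkx, against 9.51 in Venus and 9.47 in C3H10T1/2, which is 4.46-fold and 4.35-fold lower. Ext2 read 8.79, against 8.43 in Venus and 8.35 in C3H10T1/2, so it was slightly above both controls. A second probe set of Ext1, at 4.12, 4.50 and 4.88 on the same 3 arrays and so close to the floor, differed by −0.38 and −0.76. The other chain genes were near the controls. Extl3, whose enzyme adds the sugar that commits the linker to heparan sulfate, had an equal value of 8.32 on all 3 arrays, and Extl2 differed by 0.45 from Venus. Extl1 was above the floor only in C3H10T1/2, where it read 5.15.

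Among the heparan sulfotransferases, Hs6st2 was lower and Hs3st1 higher. Hs6st2, which adds sulfate to carbon 6 of glucosamine, was read by 4 probe sets that reached the floor on some array. The probe set used read 8.70 on the array labelled Venus-Mkx, against 11.66 in Venus and 11.72 in C3H10T1/2, which is 7.83-fold and 8.15-fold lower. The others differed from Venus by −3.86, −2.51 and −1.58, and all 3 of them lay under the floor on that array only. With those values set to the floor, the differences of these 3 from Venus were −3.74, −0.69 and −0.65, so only the probe set used and 1 more show 2-fold against both controls. The related gene Hs6st1 was not lower, at 6.65, against 6.39 in Venus and 6.31 in C3H10T1/2. Hs3st1, whose enzyme makes the rare sulfate group through which heparan sulfate binds antithrombin, read 5.28 on the array labelled Venus-Mkx, against 3.33 in Venus and 3.53 in C3H10T1/2. Both controls are below the floor, so it is only shown to be at least 1.92-fold higher, which falls short of 2-fold. Ndst2, which replaces acetyl by sulfate groups on the new chain, differed by 0.39 from Venus, Hs2st1, which sulfates the uronic acid, by −0.58 and Hs3st2 by −0.15. Hs3st2 was measured through 1 probe set only, and its others read 2.58 and 2.72 on all arrays, below the floor. The 7 remaining genes of this group, Ndst3, Ndst4, Hs3st3a1, Hs3st3b1, Hs3st4, Hs3st6 and Hs6st3, were below the floor on all arrays. Ndst1 and Hs3st5 were not analysed here.

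Sulf1 and Sulf2 encode extracellular enzymes that remove the same carbon 6 sulfate from finished heparan chains. Sulf1 read 10.26 on the array labelled Venus-Mkx, against 8.84 in Venus and 8.38 in C3H10T1/2, which is 2.67-fold and 3.67-fold higher. A second probe set differed by 1.49 and 1.76. Another was equal on all arrays at 2.16, far below the floor, and the mean over all 3 of them gave a difference of 0.97 from Venus, just under 2-fold. Sulf2 had no clear direction. The probe set used read 9.62, against 10.01 in Venus and 9.33 in C3H10T1/2, and its probe sets differed from Venus by −0.39, −0.45 and 0.92. Sulf2 was thus the only member with measured probe sets on opposite sides of Venus and at least 2-fold apart from each other. On these arrays Hs6st2, whose enzyme adds carbon 6 sulfate, was lower, and Sulf1, whose enzyme removes it, was higher. Their relatives Hs6st1 and Sulf2 did not share these directions, since Hs6st1 was not lower and Sulf2 was not clearly higher. No heparan sulfate was measured.

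Among carbohydrate sulfotransferases that act on other sugars, Chst1 and Chst8 were higher. Chst1, the sulfotransferase of keratan sulfate galactose, read 10.77 on the array labelled Venus-Mkx, against 9.35 in Venus and 7.88 in C3H10T1/2. This is 2.68-fold and 7.41-fold higher, and Venus itself was 2.76-fold above C3H10T1/2. Chst1 was the only one of the 42 measured members at least 2-fold higher in Venus than in C3H10T1/2, which is 2.38% of them, beside 1.49% of all measured genes. None was at least 2-fold lower in Venus, beside 0.555% of all genes. Differences between these 2 control arrays ran from −0.87 for Extl1 to 1.47 for Chst1. Chst8, which sulfates N-acetylgalactosamine on the sugar chains of pituitary hormones, read 5.98 on the array labelled Venus-Mkx, against 2.88 in Venus and 2.95 in C3H10T1/2, both below the floor. It was at least 3.12-fold higher than either. Chst2 was close to the floor, at 4.47, against 4.59 in Venus and 4.16 in C3H10T1/2. Chst4, Chst5, Chst9 and Chst10 were below it on all arrays.

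Hyaluronan genes were near the controls, with the exception of Has2. Has2, the synthase mostly used by fibroblasts, read 8.16 on the array labelled Venus-Mkx, against 7.47 in Venus and 6.84 in C3H10T1/2. The difference of 0.69 from Venus is under 2-fold and that of 1.32 from C3H10T1/2 is over it, and the second probe set gave 0.55 and 1.27. Since Venus lay 0.63 above C3H10T1/2, about as much separates the controls as separates the array labelled Venus-Mkx from Venus. Has1 was at the floor and Has3 below it. Cd44, the main receptor of hyaluronan, read 10.56, against 10.55 in Venus and 10.56 in C3H10T1/2. Another of its probe sets, with a lower reading, differed by −0.47 from Venus.

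Among the members, the core proteins of cell-surface heparan sulfate lay at or above Venus, whereas the chondroitin sulfate core proteins Cspg4 and Vcan lay below. Outside the members, the chondroitin sulfate side of this contrast did not hold for Ptprz1, a carrier of chondroitin sulfate. It read 10.02, against 5.37 in Venus and 5.60 in C3H10T1/2. The basement membrane proteoglycan genes Agrn, Col18a1 and Hspg2, also outside the members, lay above both controls, as most of the cell-surface genes did. All 7 measured glypican and syndecan genes were above Venus, with differences from 0.04 to 1.52, and 6 were above both controls, as were 37.7% of all measured genes. One of these 7 was at least 2-fold higher than both. Sdc3, a syndecan of nerve and muscle, read 8.54 on the array labelled Venus-Mkx, against 7.02 in Venus and 6.82 in C3H10T1/2, which is 2.87-fold and 3.30-fold higher. Against Venus, its further probe sets gave 0.98 and 0.10, and over the mean of all 3 the difference was 0.87, less than 2-fold. Sdc2, common on fibroblasts, read 11.42, against 10.84 in Venus and 10.45 in C3H10T1/2, and its other measured probe sets gave 0.49 and 0.63. Sdc1 read 10.39, against 10.14 in Venus and 9.71 in C3H10T1/2, and its 4 probe sets differed from Venus by 0.26 to 0.75. Sdc4, a syndecan of focal adhesions, was the exception, at 10.24, against 10.20 in Venus and 10.62 in C3H10T1/2, and its second probe set differed by −0.37 and −1.04.

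Glypicans are held to the membrane by a lipid anchor. Gpc1 read 11.29 on the array labelled Venus-Mkx, against 10.34 in Venus and 10.26 in C3H10T1/2, with differences of 0.95 and 1.04, which straddle 2-fold. Gpc6 read 9.16, against 8.18 in Venus and 8.51 in C3H10T1/2. Its 5 probe sets were all above Venus, by 0.25 to 0.98, but 2 of them were not above C3H10T1/2. Gpc4 lay 0.18 above Venus and 0.25 above C3H10T1/2, and its second probe set 0.48 and 0.51 above them. Gpc2, Gpc3 and Gpc5 were below the floor on all arrays.

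Cspg4, which encodes the transmembrane chondroitin sulfate proteoglycan NG2, known from pericytes and glial progenitors, read 5.95 on the array labelled Venus-Mkx, against 9.41 in Venus and 9.60 in C3H10T1/2. It was 10.96-fold and 12.5-fold lower, and its second probe set differed by −2.63 and −2.75. Vcan, the large versican core protein that binds hyaluronan, read 9.92, against 10.85 in Venus and 10.84 in C3H10T1/2. Its differences of −0.94 and −0.92 are just under 2-fold. The other measured probe sets of Vcan gave −0.90 and −1.14 from Venus, and 5 more were below the floor on all arrays.

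**Figure D3:**
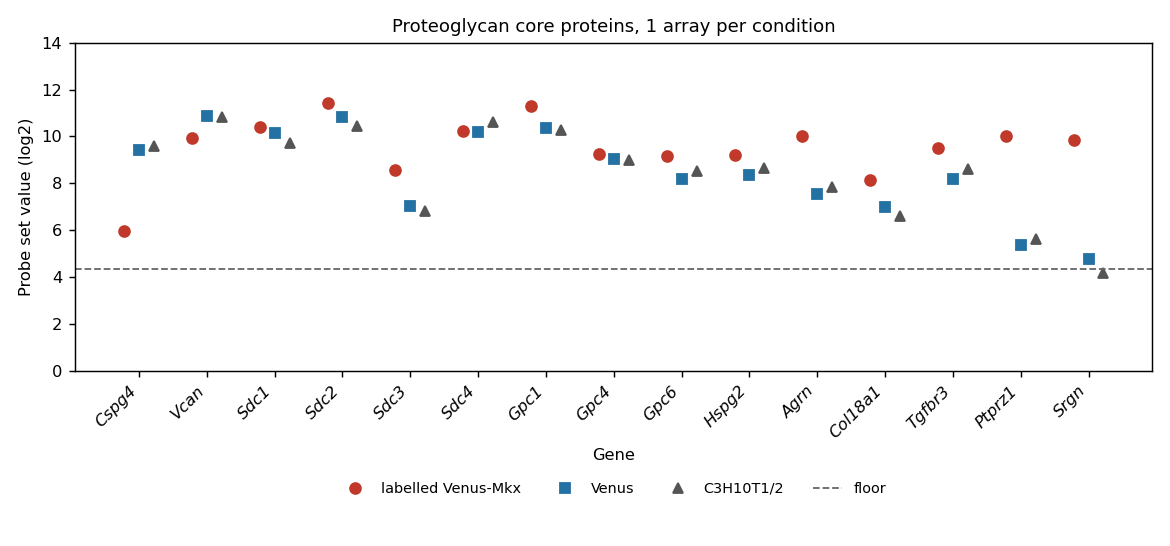
Log2 probe set value of the measured core proteins among the members and of Hspg2, Agrn, Col18a1, Tgfbr3, Ptprz1 and Srgn, with 1 point per array and the floor as a dashed line: circles are the array labelled Venus-Mkx, squares Venus and triangles C3H10T1/2. Cspg4 and Vcan are lower on the array labelled Venus-Mkx, Sdc3, Agrn, Col18a1, Ptprz1 and Srgn are at least 2-fold higher than both controls, and Sdc4 lies between its controls.

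In 20 members more than 1 probe set reached the floor, which gives 34 comparisons of a further probe set with the one used. In 21 of the 34 the difference from Venus was within 0.5 of that of the probe set used, and in 3 it had the opposite sign, namely in Cd44, Sdc4 and Sulf2. In the genes counted as 2-fold, which hold 9 of these comparisons, only 2 were within 0.5, that of Sulf1 and 1 of Hs6st2. As read, the widest gap among genes counted as 2-fold was that of Ext1, whose further probe set was 1.78 nearer to Venus. These comparisons include values below the floor. With those set to the floor, the Hs6st2 probe set within 0.5 differed from Venus by −0.69 and another by −0.65. The Hs6st2 probe set used differed by −2.97, so neither was then near it. Of the 60 genes, 31 had 1 probe set only, among them Chst7, Chst8, Chst1 and Hs3st1, so their values have no second reading.

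**Figure D4:**
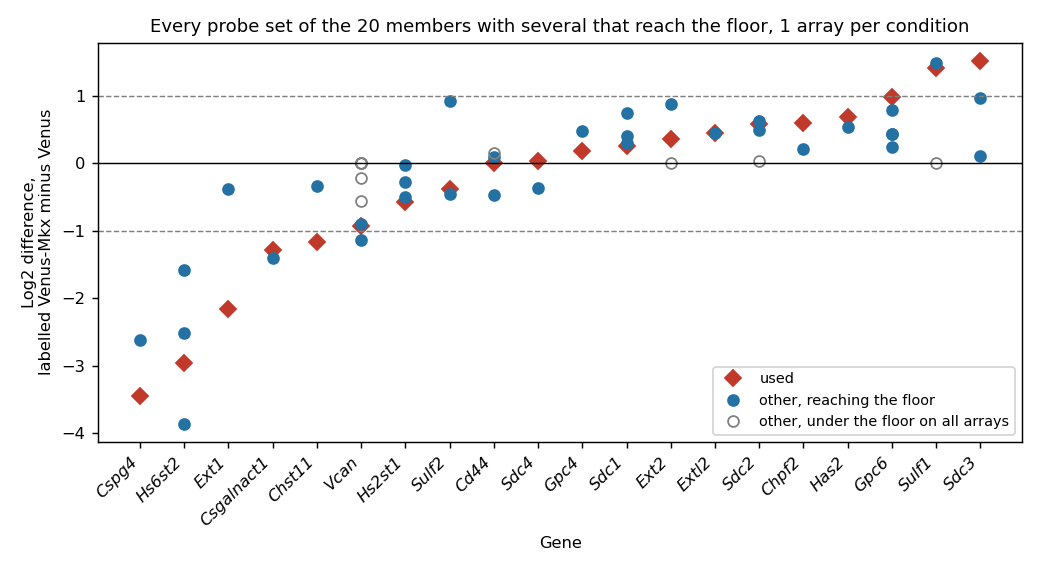
Log2 difference of the array labelled Venus-Mkx from Venus for every probe set of the 20 members with several probe sets that reach the floor. Diamonds are the probe sets used, filled circles others that reach the floor on some array and open circles those that do not, and dashed lines mark 2-fold. Values below the floor are drawn as read. Among the filled circles, this touches 3 probe sets of Hs6st2 and a further probe set each of Ext1, Ext2 and Chst11. All open circles rest on such values. Both probe sets of Cspg4 lie below −1, those of Sdc3 spread from 0.10 to 1.52, and those of Sulf2 lie on both sides of 0.

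Genes around the pathway, taken from a list of 50 of which 47 were found and 42 measured, also differed in both directions, with 7 at least 2-fold higher than both controls and 2 lower. These compare with the same 6.82% and 5.34% of all measured genes. The 4 higher core protein genes were Srgn, Ptprz1, Agrn and Col18a1. Srgn, which encodes serglycin, the proteoglycan of secretory granules in blood cells, read 9.86 on the array labelled Venus-Mkx, against 4.77 in Venus and 4.16 in C3H10T1/2. Of the macrophage genes given above, Lyz2 and Csf1r were also at least 2-fold higher, and Ptprc, Adgre1, Cd68 and Itgam were below the floor on all arrays, and their part in the value of Srgn was not tested. Ptprz1, a receptor phosphatase that carries chondroitin sulfate in the brain, read 10.02, against 5.37 in Venus and 5.60 in C3H10T1/2. Agrn, the heparan sulfate proteoglycan agrin of basement membranes, read 10.04, against 7.56 and 7.82, and Col18a1, another of that kind, 8.12, against 6.99 and 6.62. The basement membrane proteoglycan gene Hspg2 differed by 0.84 from Venus and Tgfbr3, which encodes betaglycan, by 1.34 from Venus and 0.93 from C3H10T1/2.

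Of 10 measured genes for sugar and sulfate precursors and their transport, 6 were below both controls and 3 above both, beside 40.0% and 37.7% of all measured genes, and 1 was at least 2-fold lower. Ugp2, whose enzyme makes UDP-glucose, read 9.47 on the array labelled Venus-Mkx, against 10.83 in Venus and 11.33 in C3H10T1/2. Ugdh, which turns UDP-glucose into the uronic acid donor of chondroitin, heparan and hyaluronan, read 10.50, against 11.32 and 11.59. Papss2, which makes the sulfate donor, read 8.25, against 9.09 in Venus and 10.14 in C3H10T1/2, and the controls themselves were 2-fold apart for this gene. Of 6 genes listed for the linker and for heparan epimerization, 1 was at least 2-fold higher than both controls. This was Pxylp1, which removes the phosphate from the xylose, at 10.43, against 9.10 in Venus and 7.23 in C3H10T1/2. For this gene Venus was far above C3H10T1/2, as for Chst1. Glce, the epimerase of heparan and not a linker gene, differed by −0.70 from Venus.

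Of 13 measured breakdown genes, the lysosomal enzymes Naglu, for heparan sulfate, and Galns, for keratan and chondroitin sulfate, were higher than Venus, by 1.58 and 1.32, and than C3H10T1/2, by 1.62 and 1.71. Cemip2, which encodes a hyaluronan-cutting surface protein, read 7.88 on the array labelled Venus-Mkx, against 9.62 in Venus and 9.19 in C3H10T1/2, over 2-fold lower than both. Its relative Cemip read 6.85, against 8.35 in Venus and 6.93 in C3H10T1/2, so it was lower than Venus only.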

How the data were processed

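RNA of each of 3 cultures was labelled with a 3′ expression kit and hybridized to 1 Affymetrix mouse genome array. The authors deposited log2 values, 1 per probe set. Their methods name MAS 5.0 and the submitters' processing notes RMA, without a version. The values fit a log2 scale normalized over the arrays together: array medians were 4.39, 4.34 and 4.34 for Venus-Mkx, Venus and C3H10T1/2, the range was 1.44 to 14.00, and 24.6% of the 45101 probe sets were exactly equal on all 3, with no tolerance. They were not normalized again. The 64 control probe sets were left out. Of the others, 34945 had 1 gene symbol in the platform annotation, 932 several and 9160 none.

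Differences, 2-fold counts and medians were computed with Python 3.11.15, NumPy 2.4.6 and pandas 2.3.3, and the counting was tested on simulated arrays. A limit sets values below the floor to the floor. Shares of all measured genes were computed by the same rule. Members were named where they differed at least 2-fold from both controls or between controls, had the highest level of their functional group, lay next to the floor or had probe sets that disagreed, with every syndecan, glypican, hyaluronan synthase, Ext and Xylt gene. Other pathway genes were named by the 2-fold rule. All further names, such as Csgalnact1, Tgfbr3, Hspg2, Ugdh, Papss2, Glce and Cemip, were picked with their values in view. The members and lists were chosen with earlier results of these data known. Alternatives covered the floor, the probe sets per gene, the scale, the fold and the control. The number of arrays limits the precision.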

Additional observations from a re-analysis of the deposited data

Results flagged for a closer look

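A probe set outside the comparisons, which the platform annotation assigns to both Phactr1 and Chst11, read 6.65 on the array labelled Venus-Mkx, against 3.25 in Venus and 2.62 in C3H10T1/2. It stands out because both controls are below the floor, and it runs the other way from the probe set used for Chst11. It cannot be assigned to either gene, and which transcript it reads was not tested.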

How the results depend on the processing

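The higher count of 5 members became 8 of 42 at 1.5-fold, beside 12% of all measured genes, and 2 of 42 at 3-fold, beside 3.75%. It became 3 of 30 when the floor was raised to the 75th percentile, beside 6.53%, where Chst8, Hs3st1 and Chst15 were no longer measured, and 3 of 40 over the mean of all probe sets, beside 5.66%, where Sdc3, Sulf1 and the lower gene Chst11 came under 2-fold. The lower count of 6 became 9 of 42 at 1.5-fold, beside 11.6% of all measured genes, and 5 of 42 at 3-fold, beside 2.5%. It became 5 of 30 with the raised floor, beside 5.99%, and 5 of 40 over the mean of all probe sets, beside 4.52%. Against Venus alone 5 members were higher and 7 lower, beside 7.42% and 6.68% of all measured genes, and against C3H10T1/2 alone 7 and 6, beside 8.74% and 6.8%. With values below the floor set to the floor, a setting added after seeing the data, Hs3st1 was no longer 2-fold higher and the bound for Chst8 was 1.64 on the log2 scale. In Venus against C3H10T1/2, 3 members were at least 1.5-fold higher, beside 4.42% of all, 1 was lower, beside 1.63%, and 0 were 3-fold higher, beside 0.501%. The members' median difference from Venus stayed between −0.061, with arrays centred on their medians, and 0.020, with the raised floor. That of all measured genes was −0.047 and −0.003 in these settings. Against C3H10T1/2 the members' median difference was 0.072, beside 0.00 for all measured genes. These medians lie on both sides of 0. None of the differences of the 11 genes changed sign where they could be computed, but a changed floor cannot alter a sign. For Chst7, Chst8, Chst1 and Hs3st1, with 1 probe set each, neither can the choice of probe sets. No paired analysis was possible because each condition has 1 array, and none could be left out of a condition.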

Other observations

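A further pair of probe sets is annotated with a member and another gene. The probe set for Gal3st4 and Gpc2 read 4.54 on the array labelled Venus-Mkx, against 3.82 in Venus and 3.46 in C3H10T1/2, and that for Hs3st5 and Apba3 read 2.16 on all 3 arrays.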
